A study of Mus musculus with 12 samples.

Results

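Cytochrome P450 genes of families 1 to 4 were followed in mouse liver and in liver tumours. The members were taken by gene name: every array probe whose name read Cyp, a digit from 1 to 4 and a letter, except probes for Cyp4a10, Cyp4a12a, Cyp4a14, Cyp2d9, Cyp2a4, Cyp2b9, Cyp2b13 and Cyp2f2, which were left out. This gave 69 genes with 89 probes, of 34741 named genes on the array. Family 1 had 3 members, family 2 had 41, family 3 had 8 and family 4 had 17. The rule itself uses names and no measured value.

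The series profiled liver of C3H/HeN males of the F2 generation at about 74 weeks of age. Their grandmothers (F0) drank plain tap water, or tap water holding sodium arsenite at 85 ppm, while pregnant on gestation days 8 to 18. The F1 parents of the arsenite line were thus in the womb during the treatment, and they were mated at 10 weeks of age. No arsenite was given to the F1 parents after birth or to the F2 males. Each of 4 groups held 3 arrays: control-line non-tumour liver, arsenite-line normal liver, arsenite-line non-tumour liver and arsenite-line liver tumour. Control-line tumours were not analysed here, so tumour and arsenite ancestry cannot be told apart in a tumour against the control line. The labels do not say whether the 3 samples of a group, or samples of different groups, came from separate mice. The p-values therefore measure the spread between these samples only.

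Cytochrome P450 enzymes are heme proteins that insert an oxygen atom into a substrate, and in hepatocytes most of them sit in the endoplasmic reticulum and take electrons from the reductase Por. Families 1 to 3 oxidise drugs, pollutants and steroids, and many of their genes are switched on through the aryl hydrocarbon receptor, CAR or PXR. Family 4 enzymes hydroxylate the end of fatty acid chains, and its Cyp4a genes are targets of PPARalpha. Several P450s, among them Cyp1a2 and Cyp2e1, are made mainly by hepatocytes around the central vein.

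Levels are given on a log2 scale, as the scanner signal relative to the 75th percentile of the spots on the same array that are no controls. A level of 0 is that percentile, and a difference of 1 is a doubling. Levels of different probes were not compared with each other. Of the 69 members, 54 had a probe that every array of some group (3 of 3) measured well above background, and 49 of them were so measured on all 12 arrays. No member passed through the tumours alone. The 15 others had no fit: Cyp1b1, Cyp2a22, Cyp2ab1, Cyp2b19, Cyp2b23, Cyp2c65, Cyp2c66, Cyp2j11, Cyp2w1, Cyp4a29-ps, Cyp4a30b-ps, Cyp4f39, Cyp4f40, Cyp4f41-ps and Cyp4x1.

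P450 genes of a subfamily resemble each other, and some probes do too. The probes of Cyp2c67 and Cyp2c68, neighbours on chromosome 19, could be aligned over 59 bases with 4 mismatches. Those of Cyp3a44 and Cyp3a41b on chromosome 5 could be aligned over 53 bases with 7 mismatches. The stretches below show such pairs, with the differing bases in capitals, because RNA of 1 gene may reach the probe of the other and the values of these pairs are uncertain.
Cyp2c67: acAcagtcccagAaattccatctatattcc
Cyp2c68: acCcagtcccagGaattccatctatattcc
Cyp3a44: cagtgtctgtGcaAgttaAcatAtaatACG
Cyp3a41b: cagtgtctgtAcaGgttaTcatCtaatTAA
Probes of Cyp2c37 and Cyp2c50 shared 40 aligned bases with 5 mismatches. The brightest Cyp4a31 probe, which stood for its gene, shared 47 aligned bases with 3 mismatches with a probe of Cyp4a10, which is not a member. A further Cyp4a31 probe shared 60 aligned bases with 6 mismatches with another Cyp4a10 probe.

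On the 12 arrays, 39.2% to 45.6% of probes were well above background, and 51 to 54 of the 54 members were. No member probe was saturated. The hepatocyte markers were bright in every group, with a summed linear level of 5942 to 7558 in the 9 arrays outside tumours and of 5363 to 6528 in tumours, and 1 of 7 rose and 1 fell between arsenite tumour and arsenite non-tumour. In that comparison 30% of all genes were called lower and 17.1% higher, and the marker counts below are of its calls unless another is named. Summed markers of 4 other cell types were lower in tumours than on every other array. The macrophage sum was 40.4 to 76.3 in tumours and 95.1 to 162 elsewhere, with 7 of 9 markers lower. The median log2 difference of these markers was -0.98. The stellate and fibroblast sum was 19.1 to 26.2 against 60.9 to 83.6, with 3 of 7 markers lower and 3 higher. The median log2 difference of these 7 markers was 0.82, opposite in direction to their sum. The endothelial sum was 62.3 to 87.2 against 100.3 to 129, with 3 of 7 markers lower and 1 higher. The median difference of its markers was -0.14, close to the -0.13 of all genes. The T and NK cell sum was 7.73 to 8.64 against 8.77 to 10.96, with 1 of 4 markers lower. The median difference of its markers was 0.03, so these markers did not fall as a set. The B and plasma cell sum was higher, at 1.998 to 4.42 against 0.909 to 1.93, with 1 of 2 tested markers higher. Bile duct sums were 1.64 to 2.36 in tumours and 0.846 to 2.41 elsewhere, and of 3 tested markers 0 were called against arsenite non-tumour and 1 was higher against control non-tumour. The part of these shifts in the P450 results was not tested, and in bulk tissue fewer cells of a type and less RNA per cell cannot be told apart. All tumours lay on 1 slide and all arsenite normal samples on another, so for comparisons with either group slide and group cannot be told apart. Control non-tumour and arsenite non-tumour shared the third slide.

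Most P450 members were lower in the tumours. Between arsenite tumour and arsenite non-tumour liver, 39 of the 54 tested members fell and 3 rose at an adjusted p under 0.05 (limma, Benjamini-Hochberg over 18101 genes), and 12 were not called. Of all genes tested, 30% were called lower and 17.1% higher, so the share of members called lower, 72.2%, lay above the background and the share called higher below it. The median difference was -1.60 over the members and -0.13 over all genes. A fall of more than 4-fold was called in 23 members, against 2.94% of all genes. Among all called genes 36.4% were higher, and this share moved to 53.4% when the arrays were scaled on detected probes only, where 37 members were lower and 3 higher.

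The other comparisons with tumours gave close counts, and all 3 share the same tumour arrays. Against arsenite normal liver, 41 members fell and 3 rose, beside 31% and 17.2% of all genes (48.1% in either direction), with a median of -1.42. Against control non-tumour liver, 39 fell and 3 rose, beside 32.3% and 16.9% of all genes (49.2% in either direction), with a median of -1.46. With arrays scaled on their medians the share of higher genes among all calls moved from 35.7% to 59.5% against arsenite normal and from 34.3% to 53.6% against control non-tumour, and 37 members were lower in each. Called falls of at least 4-fold numbered 23 and 21, beside 2.95% and 2.96% of all genes. The groups did not overlap for 40 members lower in tumour than in arsenite non-tumour liver, where 36% of all genes had that order, and for 3 higher (20.5%). Against arsenite normal these counts were 41 lower (37.7%) and 3 higher (21.1%), and against control non-tumour 39 lower (37%) and 4 higher (19.5%).

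**Figure D1:**
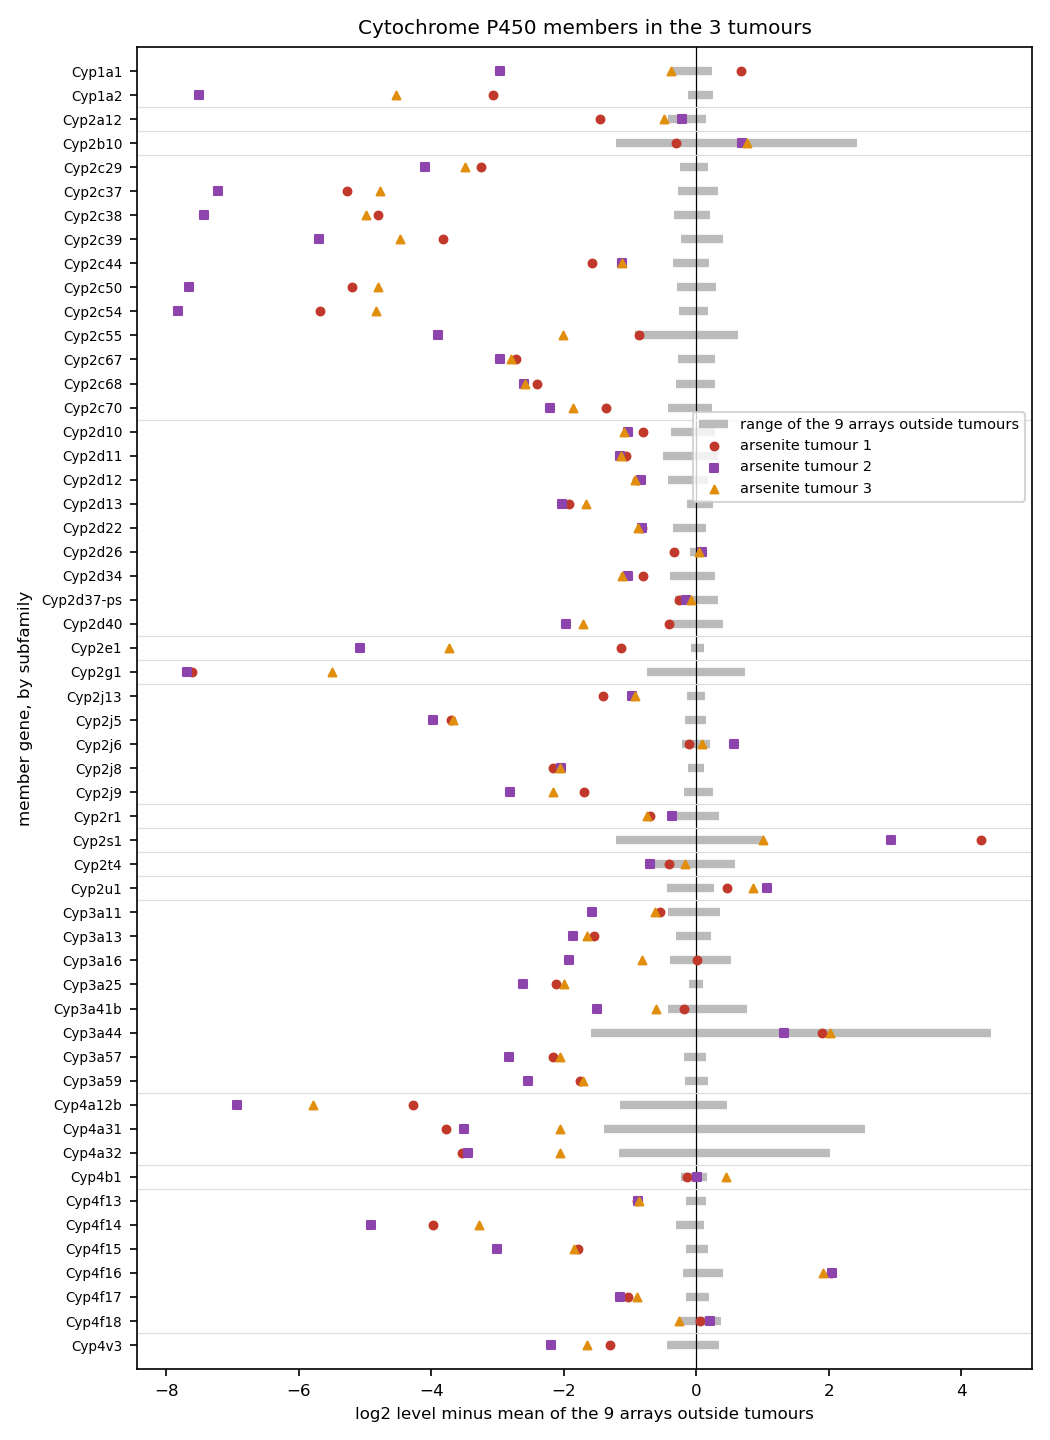
Level of each of the 54 tested members in the 3 tumours (points, log2) minus the mean of the 9 arrays outside tumours, with the range of those 9 arrays as a grey bar. Most points lie left of the bar, from Cyp2c54 at -7.83 in tumour 2 to the members of Cyp2d near -1, and tumour 2 (squares) is the lowest tumour for 33 of the 54 members.

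The Cyp2c enzymes, which oxidise drugs and turn arachidonic acid into epoxides, were lower as a subfamily. All 11 tested of its 13 members fell between arsenite tumour and arsenite non-tumour, by a median of 3.66 on the log2 scale. Cyp2c54 was at 8.38, 8.32 and 8.51 in control non-tumour, at 8.24, 8.33 and 8.29 in arsenite normal, at 8.38, 8.07 and 8.49 in arsenite non-tumour and at 2.65, 0.51 and 3.50 in the tumours. Every tumour lay far below every other array, and the 9 others differed little among themselves. The difference from arsenite non-tumour was -6.10 (SE 0.57, adjusted p = 1.47e-05, limma), a 68.4-fold lower mean.

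Cyp2c37, Cyp2c38 and Cyp2c50 had differences of -5.78, -5.77 and -5.91, and Cyp2c39 of -4.76. For Cyp2c37 and Cyp2c54 the other probes of the gene fell too, by -6.09 for Cyp2c37 and by -6.72 and -4.29 for Cyp2c54. The probes with -6.09 and -6.72 were well above background in 2 of 3 tumours, and those with -6.72 and -4.29 share 42 aligned bases with 0 mismatches. A dimmer probe of Cyp2c38 gave -2.19 with an adjusted p of 0.213 (limma), so the call of Cyp2c38 rests on its brighter probe. The dimmer one was well above background on 2 of 3 arsenite non-tumour and 1 of 3 tumour arrays.

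Cyp2c29, Cyp2c44, Cyp2c67, Cyp2c68 and Cyp2c70 had smaller differences than these. Cyp2c67 was at 5.34, 5.11 and 5.28 in tumours and between 7.80 and 8.35 elsewhere, and its difference was -2.90 (SE 0.17). Cyp2c68, whose probe resembles that of Cyp2c67, gave -2.61, and Cyp2c29, a much studied xenobiotic-metabolising enzyme of mouse liver, gave -3.66 (SE 0.19, adjusted p = 3.88e-07, limma). Cyp2c70, which makes the muricholic acids of mouse bile, was at 7.59, 6.75 and 7.09 in tumours against 8.53 to 9.19 elsewhere, a difference of -1.77 (SE 0.22). The smallest change was that of Cyp2c44, an arachidonic acid epoxygenase (Cyp2c23 in the reference), at -1.26 (SE 0.16). Cyp2c55, a dim gene that was well above background in 2 of 3 tumours, gave -2.30 (SE 0.57, adjusted p = 0.00753), and its difference from control non-tumour lost its call without control non-tumour 2 (adjusted p = 0.0768) and without control non-tumour 3 (0.0825).

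Cyp1a2 and Cyp2e1, which oxidise aromatic amines and ethanol, were low in all tumours but unequally so. Cyp1a2 was at 4.83, 4.91 and 5.05 in control non-tumour, at 5.02, 4.83 and 5.06 in arsenite normal and at 5.22, 4.85 and 4.88 in arsenite non-tumour. In tumours 1, 2 and 3 it was at 1.90, -2.54 and 0.42. Tumour 2 was lowest and tumour 1 highest, and none reached the other arrays. The difference from arsenite non-tumour was -5.05 (SE 0.82, adjusted p = 5.68e-04, limma).

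Cyp2e1 stayed between 10.00 and 10.19 on the 9 arrays outside tumours. In the tumours it was at 8.95, 5.01 and 6.34, and set against the mean of those 9 arrays the tumours were at -1.13, -5.07 and -3.74. Its difference from arsenite non-tumour was -3.30 (SE 0.73, adjusted p = 0.00367, limma), and a further probe gave -4.01. Cyp1a1, the AhR-inducible enzyme of the same subfamily, was dim, at -1.99, -5.63 and -3.04 in tumours and between -3.04 and -2.42 elsewhere. Tumour 1 was above and tumour 2 below all the other arrays, and no difference was called (-0.85, SE 0.69). The reading of tumour 2 was not well above background, so it gives only a bound. Without tumour 1 the gene was called lower (adjusted p = 0.0447, limma), but that call rests on this reading.

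The Cyp2d enzymes, relatives of a major human drug-metabolising P450, fell by smaller and more even steps as read from the brightest probes. In arsenite tumour against arsenite non-tumour, 7 of 9 were called lower, with a median of -0.85 over the subfamily. Cyp2d22 was at 4.44, 4.43 and 4.38 in tumours and between 4.90 and 5.41 elsewhere (difference -0.78, SE 0.14). Cyp2d10 and Cyp2d13 gave -0.85 and -1.90. Cyp2d34 gave -0.91 with its brightest probe and -2.40 with a dimmer one, both called lower. The size of its fall thus depends on the probe. Cyp2d40 fell by 1.43 but was at 6.29 in tumour 1, close to the 6.30 to 7.11 of the other 9 arrays, and at 4.73 and 4.99 in tumours 2 and 3. Against control non-tumour its call was lost without tumour 2 (adjusted p = 0.0501) and without control non-tumour 2 (0.0523).

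Cyp2d26 was the exception with Cyp2d37-ps. Cyp2d26 was at 9.34, 9.78 and 9.73 in tumours and between 9.59 and 9.79 elsewhere, a difference of -0.09 (SE 0.12, adjusted p = 0.574) with a 95% interval from -0.34 to 0.17. Tumours 2 and 3 lay among the other arrays and tumour 1 below them. With quantile normalization its sign turned and it was called higher (0.22, adjusted p = 0.0283, limma).

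Among the Cyp2j epoxygenases, 4 of the 5 tested members fell, and Cyp2j5 did so with the smallest adjusted p of all members. Cyp2j5 was at 1.55, 1.71 and 1.69 in control non-tumour, at 1.68, 1.48 and 1.53 in arsenite normal, at 1.39, 1.64 and 1.40 in arsenite non-tumour and at -2.15, -2.42 and -2.10 in tumours. The 3 tumours lay within 0.32 of each other and far below all other arrays (difference -3.70, SE 0.11, adjusted p = 1.38e-08, limma). Cyp2j8, Cyp2j9 and Cyp2j13 gave -2.11, -2.09 and -1.10. Cyp2j6 was not called, at 0.17 (SE 0.16).

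Cyp2g1, known best from the olfactory lining of the nose, was measured well above background by every array outside tumours, at 1.43 to 2.92, and by none of the tumour arrays. It was thus at least 42.9-fold lower in tumour than in arsenite non-tumour (adjusted p = 6.48e-06, limma). For this bound each tumour reading was raised to the lowest signal well above background on its array where it lay below that.

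The Cyp3a enzymes, which include the chief mouse counterparts of the main human drug-metabolising P450, were split. Of 8 tested members, 5 fell: Cyp3a57 by 2.38, Cyp3a25 by 2.24, Cyp3a59 by 2.02, Cyp3a13 by 1.81 and Cyp3a11 by 0.91. A dimmer probe of Cyp3a59 gave -1.01. Against control non-tumour that probe gave -0.82 and was not called (adjusted p = 0.0534, limma). Cyp3a25 was at 5.64, 5.15 and 5.76 in tumours and between 7.65 and 7.86 elsewhere, with no overlap. Cyp3a11, the gene most used to read PXR activity, was at 6.92, 5.88 and 6.84 in tumours and between 7.03 and 7.82 elsewhere. Tumours 1 and 3 lay just below the lowest of the other arrays and tumour 2 further down.

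The Cyp3a11 call was fragile. Its adjusted p of 0.021 (limma) became 0.0708 in the 6 arrays of the 2 groups, 0.0837 with the replicate number as a block in those 6 arrays, 0.0908 with quantile normalization and 0.055 when scaled on detected probes. It was also lost without arsenite non-tumour 2 (0.0525), without arsenite non-tumour 3 (0.078) and without tumour 2 (0.0611). Cyp3a16 and Cyp3a41b gave -0.91 and -0.85 and were not called; tumour 1 was within the range of the other arrays for both, and without tumour 1 both were called lower (adjusted p = 0.0086 and 0.0228, limma).

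The fatty acid hydroxylases of Cyp4a fell in all 3 tested of 5 members. Cyp4a12b was at 2.37, -0.29 and 0.86 in tumours and between 5.49 and 7.10 elsewhere (difference -5.47, SE 0.58, adjusted p = 3.44e-05, limma). Cyp4a32 and Cyp4a31 gave -3.03 and -3.08. In Cyp4a31 every one of 3 probes fell, by -3.08, -3.82 and -2.88. The first 2 of these resemble probes of Cyp4a10, whose RNA may reach them. The last was well above background in 2 of 3 tumours. The adjusted p of Cyp4a31, 0.018, became 0.0715 in the 6 arrays of the 2 groups, 0.0601 without tumour 1 and 0.0547 without tumour 2. Against arsenite normal liver the calls of Cyp4a31 and Cyp4a32 were lost without tumour 1 (0.119 and 0.0596) and without tumour 2 (0.105 and 0.0571), and that of Cyp4a31 also without any single normal array (0.0616 to 0.1).

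Of the 6 tested Cyp4f members, which inactivate leukotrienes and hydroxylate long fatty acids, 4 fell. Cyp4f14, the leukotriene B4 hydroxylase of mouse liver, was at 2.88, 1.95 and 3.57 in tumours and between 6.54 and 6.97 elsewhere (difference -4.13, SE 0.31, adjusted p = 3.72e-06, limma). Cyp4f15, Cyp4f17 and Cyp4f13 gave -2.31, -1.11 and -0.94. Cyp4f13 was nearly the same in all tumours, at 2.38, 2.39 and 2.40, and between 3.12 and 3.42 elsewhere. Cyp4v3, a fatty acid hydroxylase, fell by 1.77.

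Cyp4f16 went the opposite way. It was at -0.59, -0.98 and -1.09 in control non-tumour, at -1.06, -1.14 and -1.09 in arsenite normal, at -0.96, -1.19 and -0.79 in arsenite non-tumour and at 1.04, 1.07 and 0.93 in tumours. All tumours were above all other arrays and close to each other (difference 1.99, SE 0.14, adjusted p = 2.26e-06, limma).

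Cyp2s1, a P450 of epithelia outside the liver, was at 2.25, 0.90 and -1.04 in tumours and between -3.25 and -1.02 elsewhere. Tumour 1 was highest, and tumour 3 lay at the top of the range of the other arrays. The rise of 2.97 (SE 0.78, adjusted p = 0.00957, limma) was called in each comparison with tumours. Against control non-tumour (2.42) the call was lost without tumour 1 (0.0896), without tumour 2 (0.0647), without control non-tumour 1 (0.0712) and without control non-tumour 2 (0.0575).

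The direction of Cyp2u1, a fatty acid hydroxylase, differed between its 3 probes. The brightest probe, at chr3:130996343-130996402 of mm9, holds a run of 32 alternating bases, of which the stretch below shows 30 in capitals, while the longest such run in any probe of another member had 5 bases. The other stretches are the first 30 bases of the dimmer probes.
Cyp2u1 probe A: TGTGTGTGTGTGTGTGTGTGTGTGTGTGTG
Cyp2u1 probe B: tgtccatggtggtgccgctcgccattcctc
Cyp2u1 probe C: tacctcccctttggtccatttaaggagcta
Probe A was at 8.73, 9.32 and 9.12 in tumours and between 7.81 and 8.52 elsewhere (difference 0.82, SE 0.19, adjusted p = 0.00523, limma). Probes B and C fell by 1.41 and 1.88 in the same comparison, with tumours at -0.92, -0.98 and -0.49 for B and at -2.44, -2.63 and -2.28 for C. Cyp2u1 is counted among the 3 members that rose, but its direction is not settled, and in the 6 arrays with a replicate block its adjusted p was 0.0647.

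Cyp2r1, the chief vitamin D 25-hydroxylase of liver, gave -0.47 (SE 0.15, adjusted p = 0.0288, limma), and this call was among the least stable. It was lost in the 6 arrays (0.0671), with quantile normalization (0.0832), with its other probe (0.339) and without any of arsenite non-tumour 2, arsenite non-tumour 3, tumour 1 or tumour 3 (0.0659 to 0.109). Cyp2a12, a testosterone hydroxylase, was at 6.34, 7.58 and 7.31 in tumours and between 7.37 and 7.95 elsewhere (-0.69, SE 0.27, adjusted p = 0.059). Tumour 1 was the low one. With the replicate number as a block in the 12 arrays it was called lower (0.0363, limma), and against arsenite normal it was called lower at -0.81 (0.0303), a call lost without tumour 1 or any single normal array (0.0564 to 0.0741). Cyp4b1 and Cyp4f18 were not called, at 0.01 and 0.06 (SE 0.15 for both).

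The 3 tumours ranged more widely than the 9 other arrays in 30 of the 54 members, and in 22 of the 39 called lower. Over the 39 members called lower, the range of the 3 tumours had a median of 0.84 and the range of the 9 other arrays a median of 0.54. Tumour 2 was the lowest tumour in 28 of these 39, and tumour 1 the highest in 20. Their levels minus the mean of the 9 other arrays had medians of -1.79, -2.61 and -2.01 in tumours 1, 2 and 3. In 11 of the 54 members the tumours ranged over more than 2, among them Cyp1a2 with 4.44 and Cyp2e1 with 3.94. The ranges of Cyp1a1, Cyp2c55 and Cyp2g1, which are among the 11, rest in part on tumour readings not well above background. The tumour range was smallest for Cyp4f13 (0.03), Cyp2d22 (0.06), Cyp2d12 (0.08) and Cyp2d11 (0.09). These ranges and orders were not set against those of all genes.

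Genes of the hepatocytes around the central vein varied in the same tumours. Glul, their glutamine synthetase, was at 6.25, 0.41 and 1.80 in the tumours, against 5.36 to 5.77 in arsenite non-tumour (difference -2.74, adjusted p = 0.0639, not called). The summed linear level of 9 pericentral markers was 565, 87.6 and 120 in the tumours, and 612 to 769 on the other 9 arrays. That of 9 periportal markers was lowest in tumour 1, at 279, then 543 and 749, and 1194 to 1522 elsewhere. Against arsenite non-tumour, 4 of the 9 pericentral markers fell, and 4 of the 9 periportal markers fell and 1 rose. Of all genes, 30% were called lower and 17.1% higher there. With 3 tumours no relation across them was tested, and the part of these markers in the P450 levels was not tested.

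**Figure D2:**
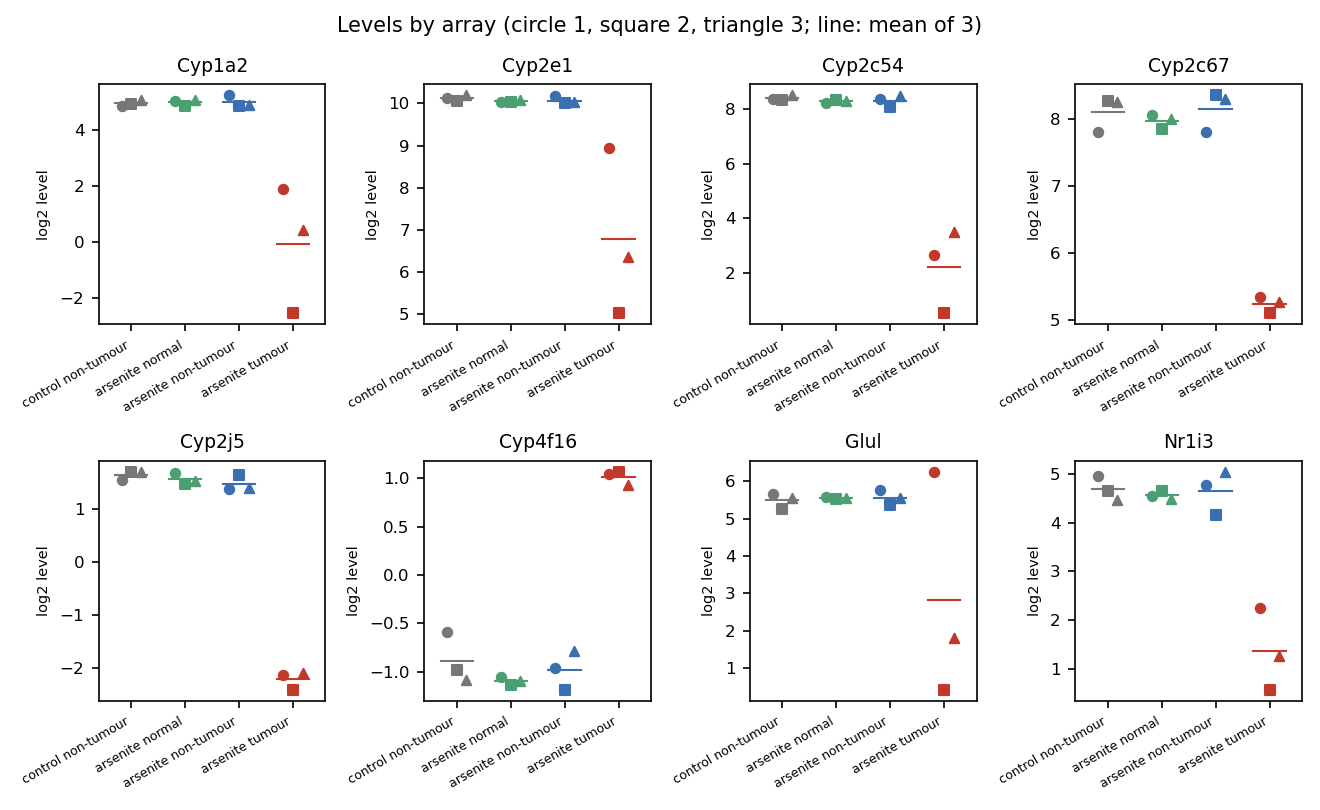
Log2 level by array of 6 members, Glul and the receptor gene Nr1i3 in the 4 groups of 3, with lines at the group means and a symbol for each replicate number. Cyp1a2, Cyp2e1 and Glul are highest in tumour 1 and lowest in tumour 2, while Cyp2c67 and Cyp2j5 are close together in all tumours and Cyp4f16 is near 1 in tumours and below -0.5 elsewhere.

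Genes that serve the P450s are read against the 30% of all genes called lower in this comparison. Of 6 electron donors and their relatives, 3 fell and none rose between arsenite tumour and arsenite non-tumour. Cyb5a, the cytochrome b5 of the endoplasmic reticulum, fell by 1.26 and Pgrmc1, a heme-binding partner, by 1.30. Por, the reductase, was at 5.13, 4.29 and 4.31 in tumours and at 5.23, 4.89 and 5.43 in arsenite non-tumour, a difference of -0.61 (SE 0.32, adjusted p = 0.148) that was not called. Of 10 genes of heme synthesis and breakdown, 4 fell, a share near that background, with Cpox at -2.16, Alad at -1.04, Hmox1 at -0.86 and Urod at -0.41. Alas1, the rate-limiting enzyme, was not called (-0.75, SE 0.82). Against arsenite normal, 3 of the 6 donors and 4 of the 10 heme genes fell, beside 31% of all genes. Against control non-tumour, 5 of the 6 and 5 of the 10 fell, beside 32.3%.

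Among 14 tested receptors and regulators, 5 fell and none rose, which in this comparison is also near the 30% of all genes. Nr1i3, which encodes CAR, was at 2.24, 0.56 and 1.25 in tumours and at 4.77, 4.16 and 5.05 in arsenite non-tumour (difference -3.31, SE 0.36). Every tumour was below every arsenite non-tumour array, with tumour 2 the lowest. Nr1h4 (FXR) gave -1.60, Rxra -1.04, Cebpa -0.77 and Rxrb -0.48. Nr1i2 (PXR), Ppara, Ahr and Hnf4a were not called, at -0.38, -0.23, -0.59 and 0.14 with SEs of 0.15, 0.13, 0.33 and 0.12. The count of the list was higher in the other comparisons with tumours. It was 8 of 14 lower against arsenite normal (31% of all genes) and 9 of 14 against control non-tumour (32.3%).

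Other targets of these receptors moved in both directions. Their counts are read beside the 30% of all genes called lower and the 17.1% called higher in this comparison. Of 9 CAR and PXR targets outside the P450s, 6 fell and 1 rose: Aldh1a1, which oxidises retinal, fell by 3.07 and the carboxylesterase Ces2a by 2.93, while the drug exporter Abcb1a rose by 2.52. Of 8 PPARalpha targets, 5 fell and 2 rose, with the acyl-CoA thioesterase Acot1 at -4.08 and the pantetheinase Vnn1 at 5.16. Of 4 AhR targets, Nqo1 and Ugt1a6a fell by 2.42 and 1.58 and the other two were not called.

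**Figure D3:**
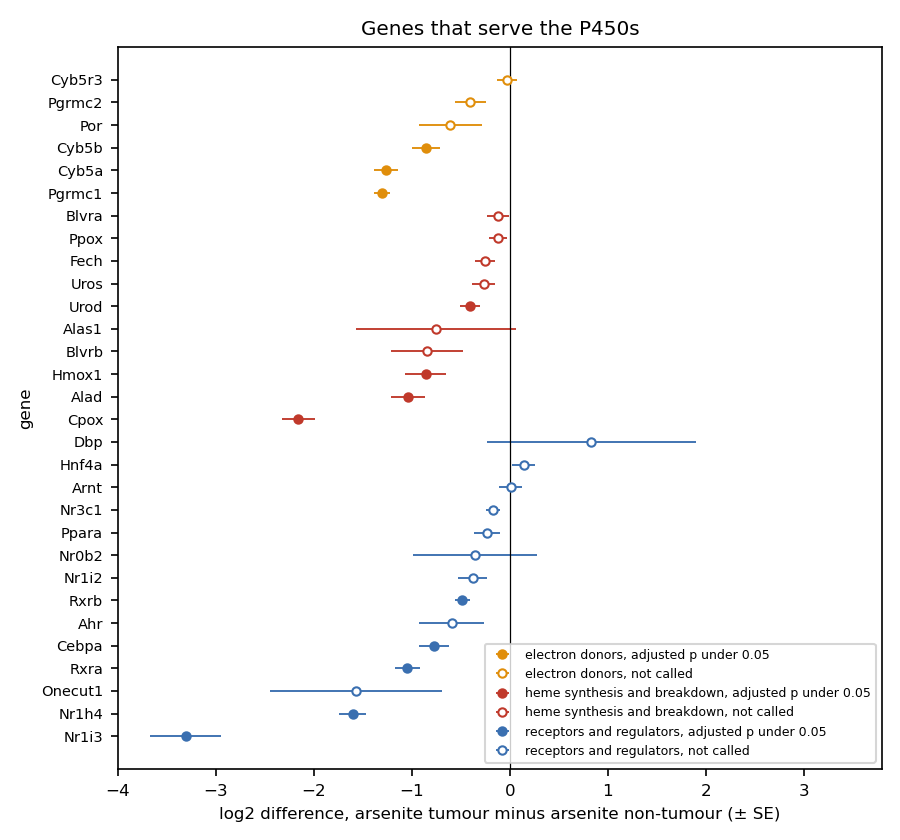
Log2 difference (arsenite tumour minus arsenite non-tumour, with SE bars) of 30 genes for electron supply, heme and P450 regulation, filled where the adjusted p was under 0.05. Nr1i3 at -3.31 is the lowest of them, and no gene of the 3 lists was called higher.

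The promoter table (RefSeq, GRCm38.p6, 250 bases before to 50 after the start) held 55 of the 69 members. The 9 bases CAAAGTCCA, an HNF4 element searched on both strands, were found in 7 of them (12.7%) and in 0.555% of 27025 genes. The members with it lie in the Cyp2c and Cyp3a clusters, and the stretches below show them with the element in capitals, from chr19:39060875-39060914 (Cyp2c65), chr19:39649143-39649182 (Cyp2c67), chr19:39741154-39741193 (Cyp2c68), chr19:40187326-40187365 (Cyp2c70), chr5:145879939-145879978 (Cyp3a11), chr5:145469798-145469837 (Cyp3a16) and chr5:145584801-145584840 (Cyp3a41b). Cyp2c65 is on the plus strand and the others are on the minus strand.
Cyp2c65: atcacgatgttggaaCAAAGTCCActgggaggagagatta
Cyp2c67: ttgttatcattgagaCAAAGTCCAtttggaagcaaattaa
Cyp2c68: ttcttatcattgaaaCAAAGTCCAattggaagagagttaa
Cyp2c70: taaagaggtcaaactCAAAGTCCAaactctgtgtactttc
Cyp3a11: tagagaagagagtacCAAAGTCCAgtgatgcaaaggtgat
Cyp3a16: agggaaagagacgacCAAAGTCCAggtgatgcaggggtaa
Cyp3a41b: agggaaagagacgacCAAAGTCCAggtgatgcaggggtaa
These are related genes, so the matches are not independent. Of the 6 tested members with the element, 4 fell between arsenite tumour and arsenite non-tumour, with a median of -1.34. Of the 36 tested without it, 25 fell, with a median of -1.79. The forkhead letters TGTTTAC were in 14.5% of the members' promoters and 4.05% of all, TATAAA in 41.8% and 15.7%, and the AhR core GCGTG in 23.6% and 35.2%. A match is a description of these letters only.

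Outside tumours no member was called. Between arsenite non-tumour and control non-tumour liver, which shared a slide, 0 of 54 members passed (0.00552% of all genes called, limma), and 0 had an unadjusted p under 0.05 where 5.64% of all genes did. Between arsenite normal and control non-tumour, 0 of 54 passed (0% of all genes, limma) and 1 had an unadjusted p under 0.05 (6.54% of all genes). Between arsenite non-tumour and arsenite normal, 0 of 54 passed (0%) and 2 had an unadjusted p under 0.05 (6.84% of all genes). Groups without overlap were few too. Arsenite non-tumour lay wholly below arsenite normal for 2 members (7.32% of all genes) and above for 3 (7.88%), and wholly below control non-tumour for 1 (6.88%) and above for 3 (3.63%). Arsenite normal lay wholly below control non-tumour for 4 (8.17%) and above for 3 (5.35%). None of these counts shows a difference of the groups, and none shows that the groups were alike.

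The intervals state what could have been missed. In the fit of all 12 arrays the 95% interval of a member reached a median of 0.44 to either side of its difference, and 2.64 for Cyp3a44. That spread is shared with the tumours. In the 6 arrays of each pair alone, the median reach was 0.41 for arsenite non-tumour against control non-tumour, 0.31 for arsenite normal against control non-tumour and 0.31 for arsenite non-tumour against arsenite normal. The widest reach, in the same order, was 3.50, 1.63 and 3.39, each for Cyp3a44. The 6-array fits called 0 members too, with 2, 5 and 3 at an unadjusted p under 0.05, beside 5.92%, 7.66% and 8.78% of all genes.

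Between arsenite non-tumour and control non-tumour, Cyp1a2 differed by 0.05, Cyp2e1 by -0.07, Cyp2c29 by 0.05 and Cyp3a11 by -0.13. Their 95% intervals were -1.77 to 1.87, -1.68 to 1.55, -0.37 to 0.48 and -0.75 to 0.48, from the fit that includes the tumours. For Cyp1a2 and Cyp2e1 the width comes mostly from the tumours. The SD of Cyp1a2 was 2.26 in tumours, 0.20 in arsenite non-tumour and 0.11 in control non-tumour. That of Cyp2e1 was 2.01, 0.09 and 0.06. On the arrays of these non-tumour groups Cyp1a2 lay between 4.83 and 5.22 and Cyp2e1 between 10.00 and 10.19. The smallest p between arsenite non-tumour and control non-tumour belonged to Cyp2d37-ps, at 0.23 (unadjusted p = 0.119, adjusted p = 0.999, limma). Cyp3a13, an enzyme of gut and liver, was at 2.64, 2.57 and 2.43 in control non-tumour, at 2.13, 2.27 and 2.12 in arsenite normal and at 2.51, 2.56 and 2.55 in arsenite non-tumour. The normal samples were below both other groups without overlap, by 0.38 from control non-tumour (-0.38, adjusted p = 0.517, limma), a difference that did not pass. Cyp2t4 was at -1.84, -2.14 and -1.64 in arsenite normal and at -2.89, -2.19 and -2.41 in arsenite non-tumour, a difference of -0.62 (adjusted p = 0.642, limma). Between arsenite normal and control non-tumour, 4 members differed by more than 1, none of them called. Cyp4a31 gave -1.17, Cyp3a44 -1.08, Cyp4a32 -1.07 and Cyp2c55 1.03. Cyp2c55 was at -0.30 to 0.32 in control non-tumour and at 0.96 to 1.26 in arsenite normal. Arsenite non-tumour lay between them at 0.59 to 0.81, without overlap. The SD of Cyp2c55 was 1.54 in tumours and at most 0.34 in these groups.

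**Figure D4:**
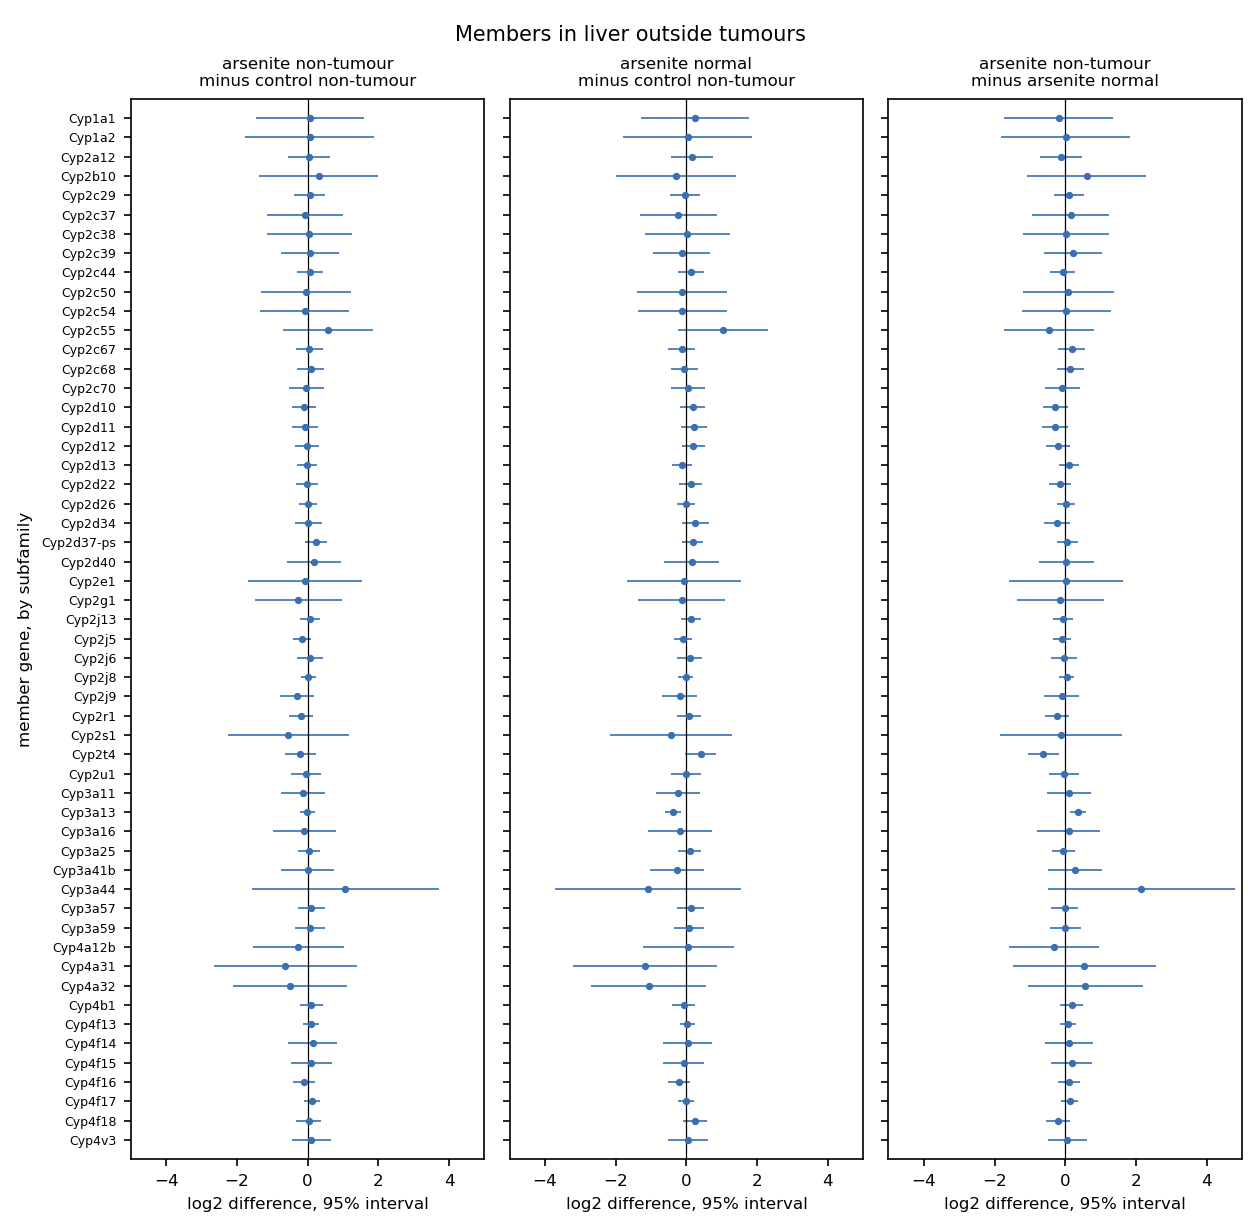
Log2 difference with its 95% interval for each of the 54 tested members in the 3 comparisons outside tumours, from the fit of all 12 arrays. Most points lie close to 0, but 4 members differ by more than 1 in arsenite normal minus control non-tumour. Cyp3a44 has the widest interval. The intervals of Cyp3a13 and Cyp2t4 leave out 0 in arsenite non-tumour minus arsenite normal before adjustment over genes.

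One array outside tumours stood apart. Arsenite non-tumour 3 lay more than 1 above all the other 8 arrays outside tumours in 3 members, Cyp2b10, Cyp3a44 and Cyp4a31, and no other array did so, or lay as far below, in any member. Cyp2b10, the classic CAR target, was at 7.35 on it, at 3.71 and 4.63 in the other arsenite non-tumour samples, at 4.30, 5.57 and 4.88 in control non-tumour, at 4.93, 4.42 and 4.52 in arsenite normal and at 4.62, 5.62 and 5.70 in tumours. It was above the tumours too, of which tumours 2 and 3 lay above the other 8 arrays outside tumours and tumour 1 among them. Cyp3a44, a gene known as female-predominant in mouse liver, was at 3.67 on it and at -1.30 and -1.50 in the rest of its group. Cyp4a31 was at 7.70 against 3.75 and 3.90, and Cyp4a32 at 5.86 against 2.68 and 3.07. Cyp4a12b was lower there, at 5.49 against 6.75 and 7.10.

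Results that include this array changed without it. In arsenite tumour minus arsenite non-tumour, Cyp3a44 was not called with it (0.67, SE 1.19) and was called higher without it (2.36, SE 0.65, adjusted p = 0.0158, limma). Cyp2b10 went from 0.08 to 1.14 (adjusted p = 0.0627), Cyp4a31 from -3.08 to -1.79 (adjusted p = 0.0188) and Cyp4a32 from -3.03 to -2.04 (adjusted p = 0.00562). Without it 37 members were called lower and 4 higher. In arsenite non-tumour minus control non-tumour, Cyp4a31 went from -0.63 to -1.92 and Cyp3a44 from 1.07 to -0.62, and 0 members were called without it in this comparison or against arsenite normal, with 2 at an unadjusted p under 0.05 in each (limma).

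**Figure D5:**
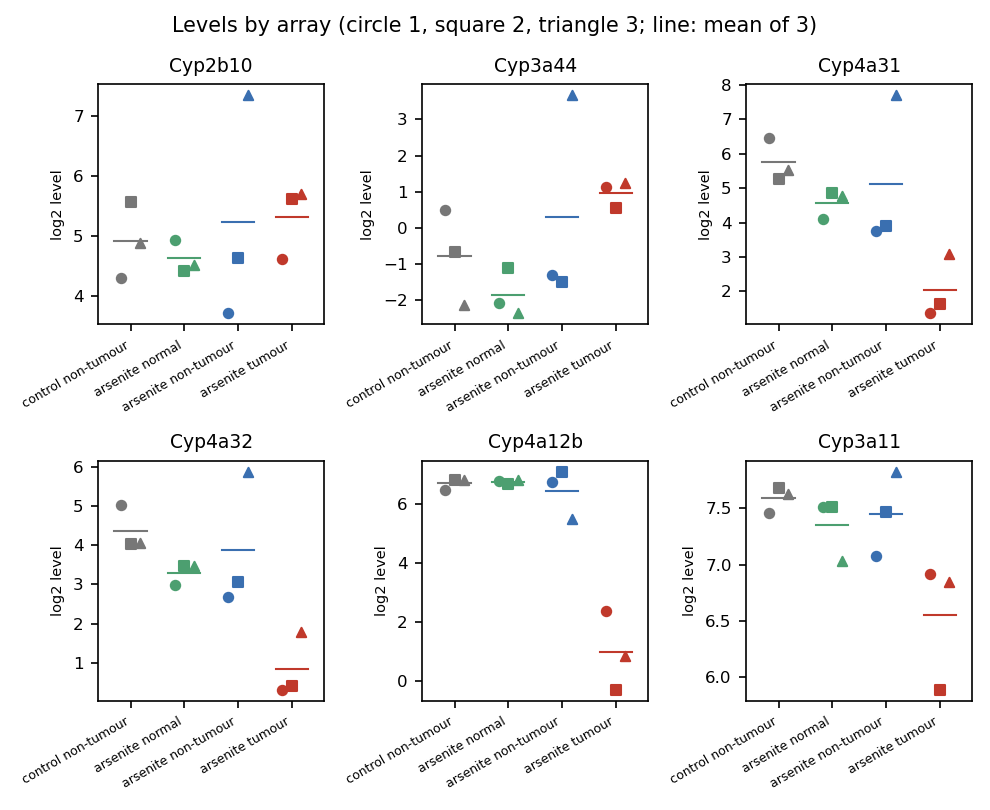
Log2 level by array of 6 members in the 4 groups of 3, with lines at the group means and a symbol for each replicate number. The triangle of arsenite non-tumour is the highest of all 12 arrays for Cyp2b10 (7.35), Cyp3a44 (3.67), Cyp4a31 (7.70) and Cyp4a32 (5.86), and the lowest of the 9 arrays outside tumours for Cyp4a12b (5.49).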

How the data were processed

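Total liver RNA was labelled with Cy3 and hybridised to single-colour Agilent arrays, per the labels' protocols. The deposited scanner files hold background-corrected intensity per spot; per the file headers they came from Feature Extraction 10.7.3.1, and the submitters' processing notes name version 12.0.3.1 and mm9. The authors' deposited value table, a ratio of signal to about that array's 75th percentile over all spots, controls included, as set against the scanner files, was tried as an alternative. Here log2 intensity was taken relative to the 75th percentile of the 59305 spots per array that are no controls. Spots of a probe were averaged, probes well above background on all 3 arrays of a group were kept (24144), and the brightest probe stood for its gene (18101 genes). Groups were compared with limma 3.58.1 (R 4.3.3), 12 arrays, 1 mean per group, Benjamini-Hochberg over all genes. The script was tested on simulated data. Members and lists were chosen with earlier results of these data known. Fit values were given for called members with the 15 largest changes, the 5 smallest p where fewer than 5 were called, a list of textbook members, and the partner lists; Cyp2a5, Cyp2c40, Cyp2c69 and Cyp3a41a had no probe of that name. Members whose call depended on a setting, and Cyp2d13, Cyp2d34, Cyp2d37-ps, Cyp2d40, Cyp2j8, Cyp2j13, Cyp3a41b and Cyp3a57 where outside that rule, were chosen after their values were seen. 1 gene of the heme list is not reported here. Same-numbered samples deviated together between arsenite tumour and arsenite non-tumour (correlations of deviations 0.15, 0.14 and 0.23 over genes), so a replicate block was fitted there; the pairing comes from this check, as the labels do not state it.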

Additional observations from a re-analysis of the deposited data

How the results depend on the processing

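The number of members called stayed within 1.5 times of the reported one under every alternative that was run. Between arsenite tumour and arsenite non-tumour it was 39 to 43 under other settings and 40 to 43 without 1 replicate, against arsenite normal 40 to 48 and 41 to 44, and against control non-tumour 39 to 47 and 39 to 43. The counts of 48 and 47 came without the filter on dim probes, where all 69 members were tested. The number called was 0 in all alternatives outside tumours. A sign turned with a call on either side for 2 members, and differences that were not called turned in more cases, such as Cyp3a44 and Cyp2b10 in arsenite non-tumour minus control non-tumour without arsenite non-tumour 3. With quantile normalization Cyp2d26 was 0.22, 0.31 and 0.27 against arsenite non-tumour, arsenite normal and control non-tumour. Cyp2u1 was -0.82, -1.20 and -0.82 as the mean over its probes, and its dimmer probes alone, read after seeing the data, gave -1.41 and -1.88, -2.06 and -2.34, and -1.41 and -1.82. With a replicate block the tumour and non-tumour comparison gave 38 lower and 2 higher members in 6 arrays and 40 lower and 3 higher in 12, and apart from Cyp2u1, Cyp3a11 and Cyp2a12 no call changed there. Scaling on medians moved the median difference of all genes to 0.29 in arsenite non-tumour minus arsenite normal and to 0.23 in arsenite non-tumour minus control non-tumour, where the members' medians were 0.31 and 0.27. Slide as a block could not be fitted for tumours or arsenite normal, and control non-tumour with arsenite non-tumour lay within 1 slide. The 3 arrays per group limit the precision, and dim probes such as Cyp1a1 and Cyp2t4 carry the least signal over background.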
